A study of Mus musculus with 24 samples.

Results

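Integrins are cell-surface receptors built from 1 alpha and 1 beta chain. They bind extracellular matrix proteins outside the cell and, through talin, kindlin and their partners, the actin cytoskeleton inside it. The alpha chain largely sets which matrix protein is bound, and the beta 1 chain, encoded by Itgb1, serves many different alpha chains. In skeletal muscle the laminin receptor of alpha 7 and beta 1 sits on the fibre membrane and at the junction of muscle with tendon, where force is passed to the matrix.

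The genes described are 10 of the 19937 genes with a probe set of their own, chosen by symbol: the alpha subunit genes Itga1, Itga5, Itga6, Itga7, Itga11 and Itgav, the beta subunit genes Itgb1, Itgb3 and Itgb5, and Itgbl1. The last encodes a secreted protein with repeats like those of beta integrins and is not known as a chain of an integrin receptor, so 9 of the 10 are subunits in the strict sense. Each gene was read by 1 probe set, and all 10 passed the filter on low values, which left 14499 genes for the tests. None of the 10 passed through 1 group alone: their mean was above the filter in all 4 groups.

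The tissue was the plantaris, a calf muscle that extends the ankle and flexes the toes, taken from mice aged 3 months, and transcripts were read on 1 array per mouse. The 4 groups of 6 mice were overloaded Mstn-/- mice, untreated Mstn-/- mice, overloaded wildtype mice and untreated wildtype mice. Mstn encodes myostatin, a secreted protein of the TGF-beta family that restrains muscle growth, and the labels name the Mstn-/- genotype without describing the allele. Overload was imposed on both legs by removing the soleus and much of the gastrocnemius under pentobarbitone at 50 mg/kg. Controls had no operation, so load and surgery cannot be told apart. The labels give the same pentobarbitone dose for all 4 groups, untreated mice included. The labels do not state strain, sex or how long the overload lasted. The series title sets matrix remodelling beside the gain of muscle force under overload, and integrins are the receptors through which cells hold that matrix.

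The arrays had median intensities between 139 and 147, and the number of arrays limits the precision. The Mstn probe set read 8.93 ± 0.31 on the log2 scale in untreated Mstn-/- muscle, against 10.25 ± 0.11 in untreated wildtype muscle (SD, n = 6 each). It read 8.25 ± 0.30 in overloaded Mstn-/- muscle and 8.40 ± 0.19 in overloaded wildtype muscle, and it was thus 2.51-fold lower in Mstn-/- without overload (limma adjusted p = 2.72e-08) and missed the threshold with overload (log2 -0.15, limma adjusted p = 0.390). The labels do not say which part of the gene the allele changes, or whether the probes fall within it. All 10 of the muscle fibre marker genes, among them Acta1 and Ckm, were above the filter in every group. Tissue RNA pools all cells of the muscle, and a change in the number of cells of a type cannot be told apart from a change in RNA per cell.

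For orientation, the 250 bases before the annotated start of 3 of these genes are shown, from RefSeq on build GRCm38.p6, read 5′ to 3′ on the strand of the gene: those of the 2 subunits with the largest rises under overload in wildtype muscle, and that of the beta chain they share. Capitals mark matches on either strand to the motifs searched.
Itga5, chr15:103366792-103367041, minus strand: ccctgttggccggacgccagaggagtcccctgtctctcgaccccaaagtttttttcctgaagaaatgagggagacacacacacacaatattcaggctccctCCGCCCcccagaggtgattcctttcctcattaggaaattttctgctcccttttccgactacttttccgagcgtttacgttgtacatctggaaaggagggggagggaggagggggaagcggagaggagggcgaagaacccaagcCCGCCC
Itga11, chr9:62677605-62677854, plus strand: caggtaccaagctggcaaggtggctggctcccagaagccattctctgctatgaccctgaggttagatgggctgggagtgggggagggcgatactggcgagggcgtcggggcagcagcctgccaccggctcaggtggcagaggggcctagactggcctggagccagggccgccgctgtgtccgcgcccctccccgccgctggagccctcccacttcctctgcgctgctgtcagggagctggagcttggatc
Itgb1, chr8:128685404-128685653, plus strand: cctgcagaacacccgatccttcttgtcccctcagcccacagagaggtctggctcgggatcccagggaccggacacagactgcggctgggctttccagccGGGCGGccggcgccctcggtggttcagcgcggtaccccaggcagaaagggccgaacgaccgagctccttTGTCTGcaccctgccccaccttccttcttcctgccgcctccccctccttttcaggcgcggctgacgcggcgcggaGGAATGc

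The motifs were GGAATG, the core bound by TEAD factors, TGANTCA, bound by AP-1, GGGCGG, the GC box bound by Sp factors, CAGACA, a SMAD-type element, and the CArG box bound by SRF. The GC box was found in the Itga5 and Itgb1 windows, and GGAATG and CAGACA in the Itgb1 window, while the Itga11 window held none of the 5. A promoter window was available for 7 of the 10 genes. Among these, GGGCGG was in 4 windows, GGAATG in 1, CAGACA in 1, and TGANTCA and the CArG box in 0. Of all 32851 windows of this length, 32.7% held GGGCGG, 12.6% GGAATG, 17.1% CAGACA, 6.75% TGANTCA and 1.47% a CArG box. A match is a run of letters and not a measured binding site.

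Overload raised most of these genes in both genotypes. In Mstn-/- muscle 9 of the 10 passed the limma test upward, with Itgb5 the exception, and in wildtype muscle 9 of the 10 passed upward, with Itga6 the exception. In each genotype 0 of the 10 fell. Among all 14499 genes the same test called 27.1% higher and 33.5% lower in Mstn-/- muscle, and 30.3% higher and 35.6% lower in wildtype muscle. The median log2 difference of the 10 genes was 0.46 in Mstn-/- and 0.68 in wildtype muscle, beside -0.06 over all genes in each. The arrays of overloaded and untreated muscle did not overlap, with overload higher, for 8 of the 10 genes in Mstn-/- mice (19.8% of all genes) and for 7 of the 10 in wildtype mice (21.8% of all genes). With overload lower, 0 of the 10 were free of overlap in either genotype, beside 20.1% of all genes in Mstn-/- and 21.1% in wildtype mice. The 10 genes were chosen with such results known, so these counts describe the choice and are not independent evidence.

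**Figure D1:**
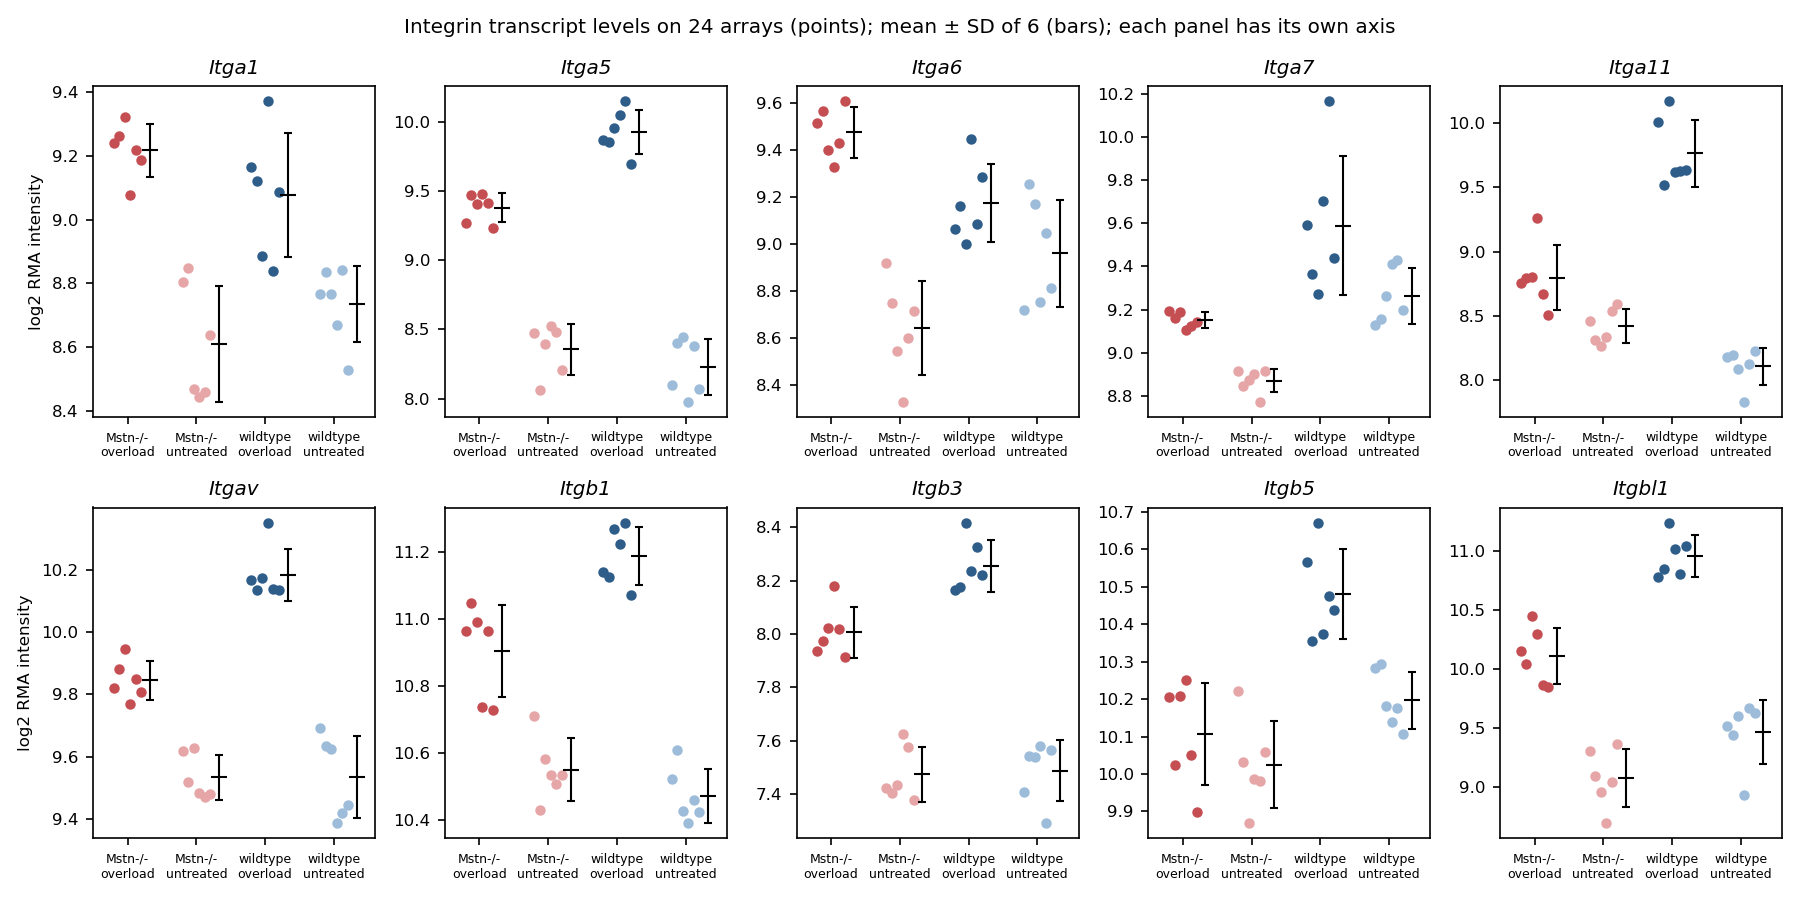
Levels of the 10 genes on each of the 24 arrays, as log2 RMA intensity, with 1 panel per gene and an axis of its own per panel. Points are mice, bars are the mean ± SD of 6, and groups run from overloaded Mstn-/- to untreated wildtype. Itga5, Itgav, Itgb1, Itgb3 and Itgbl1 show both overloaded groups clear of the untreated group of the same genotype.

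**Figure D2:**
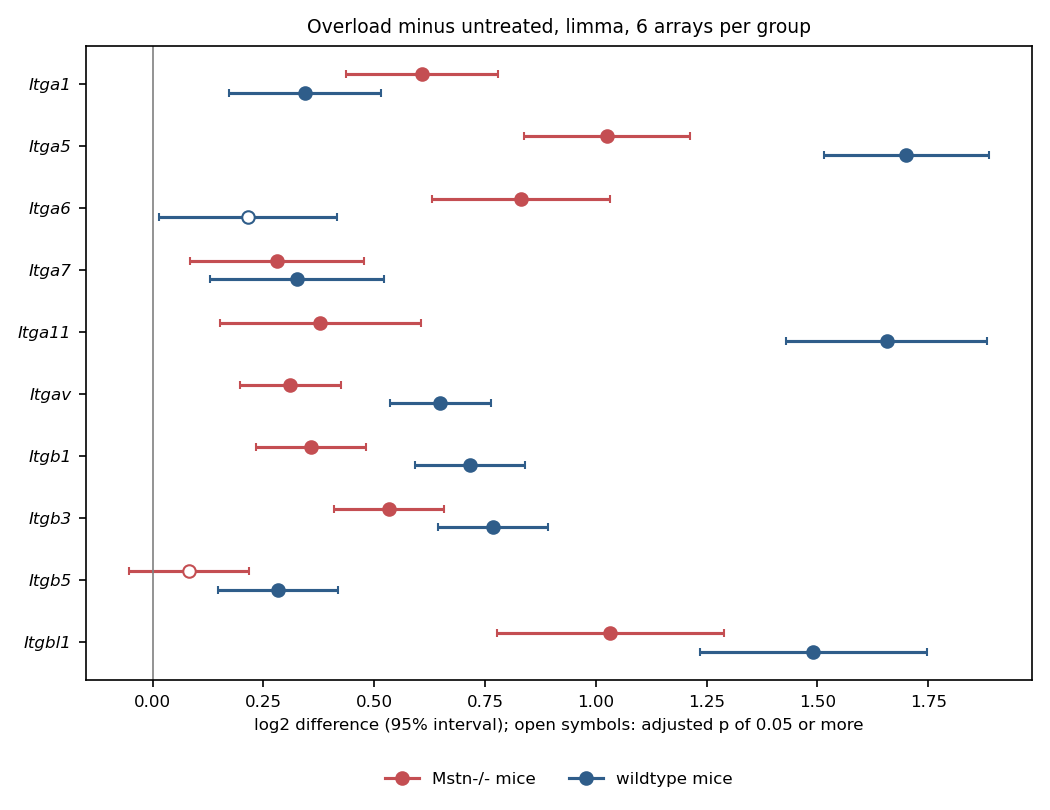
Log2 difference of overloaded minus untreated muscle with its 95% interval, Mstn-/- above wildtype for each gene. Filled symbols passed an adjusted p of 0.05. Wildtype lies to the right of Mstn-/- for 8 genes, and Itga1 and Itga6 lie the other way.

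Itgb1, the common beta chain, ran from 10.73 to 11.05 on the log2 scale in overloaded Mstn-/- muscle (median 10.97), against 10.43 to 10.71 in untreated Mstn-/- muscle (median 10.53). In wildtype it ran from 11.07 to 11.29 under overload (median 11.18), against 10.39 to 10.61 without (median 10.44). Overload thus separated the arrays completely in each genotype, and every overloaded wildtype array was also above every overloaded Mstn-/- array. The rise was 1.28-fold in Mstn-/- (log2 0.36 ± 0.06, SE, limma adjusted p = 1.53e-05) and 1.64-fold in wildtype muscle (log2 0.72 ± 0.06, limma adjusted p = 8.78e-11). The rise in Mstn-/- was smaller by 0.36 ± 0.09 on the log2 scale (limma adjusted p of the difference 0.00445).

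The alpha chains did not follow Itgb1 evenly. Itga5, whose product pairs with beta 1 as the classical fibronectin receptor, had, with Itga11, the largest rises of the 10 in wildtype muscle; the order of the pair turned without untreated wildtype replicate 6 or overloaded wildtype replicate 4 or 5. It ran from 9.24 to 9.48 in overloaded Mstn-/- muscle (median 9.41), against 8.06 to 8.53 in untreated Mstn-/- muscle (median 8.43), and from 9.70 to 10.15 in overloaded wildtype muscle (median 9.91), against 7.98 to 8.44 in untreated wildtype muscle (median 8.24). The 2 untreated groups overlapped, while all 4 pairings of an overloaded with an untreated group were free of overlap. Itga5 rose 2.03-fold in Mstn-/- (log2 1.03 ± 0.09, SE, limma adjusted p = 4.63e-10) and 3.25-fold in wildtype muscle (log2 1.70 ± 0.09, limma adjusted p = 2.03e-14), and the responses differed by -0.68 ± 0.13 (limma adjusted p = 6.34e-04).

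Itga11 encodes the alpha chain of a receptor for fibrillar collagen that is best known from fibroblasts. It ran from 8.51 to 9.26 in overloaded Mstn-/- muscle (median 8.77), against 8.27 to 8.60 in untreated Mstn-/- muscle (median 8.40). In overloaded wildtype muscle it ran from 9.52 to 10.17 (median 9.63), against 7.83 to 8.22 in untreated wildtype muscle (median 8.15). Among the 10 genes it showed the largest gap between the genotypes: overloaded wildtype arrays were above all others, whereas the Mstn-/- groups overlapped. It rose 1.30-fold in Mstn-/- (log2 0.38 ± 0.11, SE, limma adjusted p = 0.00465) and 3.15-fold in wildtype muscle (log2 1.66 ± 0.11, limma adjusted p = 1.05e-12). The responses differed by -1.28 ± 0.16 (limma adjusted p = 4.64e-06).

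Itga1 and Itga6 behaved otherwise. Itga6 encodes the alpha chain of laminin receptors of endothelium, satellite cells and other cells, and Itga1 that of a collagen receptor, with collagen IV of basement membranes among its ligands. Itga6 ran from 9.33 to 9.61 in overloaded Mstn-/- muscle (median 9.47), against 8.33 to 8.92 in untreated Mstn-/- muscle (median 8.66), and from 9.0 to 9.45 in overloaded wildtype muscle (median 9.12), against 8.72 to 9.25 in untreated wildtype muscle (median 8.93). The arrays separated in Mstn-/- mice and overlapped in wildtype mice. The rise in Mstn-/- was 1.78-fold (log2 0.83 ± 0.10, SE, limma adjusted p = 6.01e-08), and the wildtype difference of 0.21 ± 0.10 missed the threshold (limma adjusted p = 0.0555). Itga6 was the 1 gene of the 10 whose response was larger in Mstn-/- by the test, by 0.62 ± 0.14 (limma adjusted p = 0.00279). The wildtype difference passed the threshold without untreated replicate 2 or 3 or overloaded replicate 1 or 3 (log2 0.27, 0.26, 0.24 and 0.25, limma adjusted p from 0.0157 to 0.0484).

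Itga1 ran from 9.08 to 9.32 in overloaded Mstn-/- muscle (median 9.23), against 8.44 to 8.85 in untreated Mstn-/- muscle (median 8.55). It ran from 8.84 to 9.37 in overloaded wildtype muscle (median 9.10), against 8.53 to 8.84 in untreated wildtype muscle (median 8.77). Again the groups separated in Mstn-/- mice and touched in wildtype mice. The rises were 1.52-fold in Mstn-/- (log2 0.61 ± 0.08, SE, limma adjusted p = 7.12e-07) and 1.27-fold in wildtype muscle (log2 0.34 ± 0.08, limma adjusted p = 7.61e-04). Their difference of 0.26 ± 0.12 did not pass (95% interval 0.02 to 0.51, limma adjusted p = 0.132), though it did without overloaded wildtype replicate 4 (log2 0.32, limma adjusted p = 0.0414).

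Itga7, the alpha chain of the main laminin receptor of the mature muscle fibre, rose modestly in each genotype. It ran from 9.10 to 9.19 in overloaded Mstn-/- muscle (median 9.15), against 8.77 to 8.92 in untreated Mstn-/- muscle (median 8.89), and from 9.27 to 10.17 in overloaded wildtype muscle (median 9.52), against 9.13 to 9.43 in untreated wildtype muscle (median 9.23). The Mstn-/- arrays lay close together in each condition, and the overloaded wildtype arrays were widely spread. Itga7 rose 1.22-fold in Mstn-/- (log2 0.28 ± 0.10, SE, limma adjusted p = 0.0134) and 1.25-fold in wildtype muscle (log2 0.33 ± 0.10, limma adjusted p = 0.00409). The wildtype value was 0.21 without overloaded replicate 5, still past the threshold (limma adjusted p = 0.00785). The difference between the responses was -0.04 ± 0.14 (95% interval -0.32 to 0.23, limma adjusted p = 0.875), which leaves room for a moderate difference either way.

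Itgav and the beta chains Itgb3 and Itgb5 form receptors for vitronectin, fibronectin and osteopontin, and integrins with the alpha v chain are also known to release TGF-beta from its latent complex. Itgav ran from 9.77 to 9.94 in overloaded Mstn-/- muscle, against 9.47 to 9.63 in untreated Mstn-/- muscle, and from 10.13 to 10.35 in overloaded wildtype muscle, against 9.39 to 9.69 in untreated wildtype muscle. The medians in the same order were 9.83, 9.50, 10.15 and 9.54. It rose 1.24-fold in Mstn-/- (log2 0.31 ± 0.06, SE, limma adjusted p = 3.09e-05) and 1.57-fold in wildtype muscle (log2 0.65 ± 0.06, limma adjusted p = 1.15e-10). The overloaded groups stood apart from both untreated groups and from each other, and the responses differed by -0.34 ± 0.08 (limma adjusted p = 0.00373).

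Itgb3 ran from 7.91 to 8.18 in overloaded Mstn-/- muscle (median 8.0), against 7.38 to 7.63 in untreated Mstn-/- muscle (median 7.43). It ran from 8.16 to 8.42 in overloaded wildtype muscle (median 8.23), against 7.29 to 7.58 in untreated wildtype muscle (median 7.54). Overload separated the arrays in each genotype, and the 2 overloaded groups just touched. The rises were 1.45-fold in Mstn-/- (log2 0.53 ± 0.06, SE, limma adjusted p = 3.56e-08) and 1.70-fold in wildtype muscle (log2 0.77 ± 0.06, limma adjusted p = 2.53e-11). Their difference of -0.23 ± 0.09 missed the threshold (95% interval -0.41 to -0.06, limma adjusted p = 0.0592) and passed it without overloaded Mstn-/- replicate 4 (log2 -0.27, limma adjusted p = 0.0264), under quantile normalization once more (limma adjusted p = 0.0429) and under the stricter filter (limma adjusted p = 0.0463).

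Itgb5 had the smallest difference of the 10 in Mstn-/- muscle. It ran from 9.90 to 10.25 in overloaded Mstn-/- muscle (median 10.13), against 9.87 to 10.22 in untreated Mstn-/- muscle (median 10.01), and from 10.36 to 10.67 in overloaded wildtype muscle (median 10.46), against 10.11 to 10.29 in untreated wildtype muscle (median 10.18). Only the wildtype groups separated. Itgb5 rose 1.22-fold in wildtype muscle (log2 0.28 ± 0.07, SE, limma adjusted p = 5.23e-04), beside 0.08 ± 0.07 in Mstn-/- (limma adjusted p = 0.282). The difference between the responses was -0.20 ± 0.09 and did not pass (95% interval -0.39 to -0.01, limma adjusted p = 0.150).

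Itgbl1 ran from 9.85 to 10.45 in overloaded Mstn-/- muscle (median 10.10), against 8.70 to 9.36 in untreated Mstn-/- muscle (median 9.07), and from 10.79 to 11.24 in overloaded wildtype muscle (median 10.94), against 8.94 to 9.67 in untreated wildtype muscle (median 9.56). Each overloaded group lay above its untreated group, and overloaded wildtype lay above every other group. It rose 2.05-fold in Mstn-/- (log2 1.03 ± 0.12, SE, limma adjusted p = 8.89e-08) and 2.81-fold in wildtype muscle (log2 1.49 ± 0.12, limma adjusted p = 7.11e-11). The responses differed by -0.46 ± 0.18, which missed the threshold (95% interval -0.82 to -0.10, limma adjusted p = 0.0747). It passed without untreated Mstn-/- replicate 4 (log2 -0.53, limma adjusted p = 0.0331) and without overloaded Mstn-/- replicate 3 (log2 -0.53, limma adjusted p = 0.0366).

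By the test of the difference itself, 4 of the 10 responses were smaller in Mstn-/- muscle (Itga5, Itga11, Itgav and Itgb1), 1 was larger (Itga6) and 5 were not called. Among all genes 8.44% had a response called lower in Mstn-/- and 8.92% one called higher. For genes that rise under overload, a lower response means a smaller rise in Mstn-/- muscle.

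Because every alpha chain listed can pair with beta 1, each was also set against Itgb1 on the same array, and only the change of that ratio with overload is given, since levels of different probe sets cannot be compared. Relative to Itgb1, Itga5 was 1.59-fold higher under overload in Mstn-/- and 1.98-fold higher in wildtype muscle, with no overlap between the groups in either genotype. The Itga11 ratio was 1.01-fold in Mstn-/- (groups overlapping, with 1 overloaded array well above the other 5) and 1.92-fold higher in wildtype muscle without overlap. The Itga6 ratio was 1.39-fold higher under overload in Mstn-/- without overlap, and 1.42-fold lower in wildtype with overlapping groups. Itga1 was 1.19-fold higher relative to Itgb1 in Mstn-/- and 1.29-fold lower in wildtype, with overlap in each. Itgb1 itself rose by log2 0.36 in Mstn-/- and 0.72 in wildtype muscle, and every ratio carries that difference. The levels of Itga6 and Itga1 themselves were not lower under overload in wildtype muscle (log2 0.21 and 0.34).

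The ratio of Itga7 was 1.05-fold lower in Mstn-/- and 1.31-fold lower in wildtype, and that of Itgav 1.03-fold lower in Mstn-/- and 1.05-fold lower in wildtype, all with overlap. Of all other genes, 6.79% were above Itgb1 in this way without overlap in Mstn-/- and 4.62% in wildtype muscle, and 44.9% and 79.3% were below. These ratios carry no test.

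**Figure D3:**
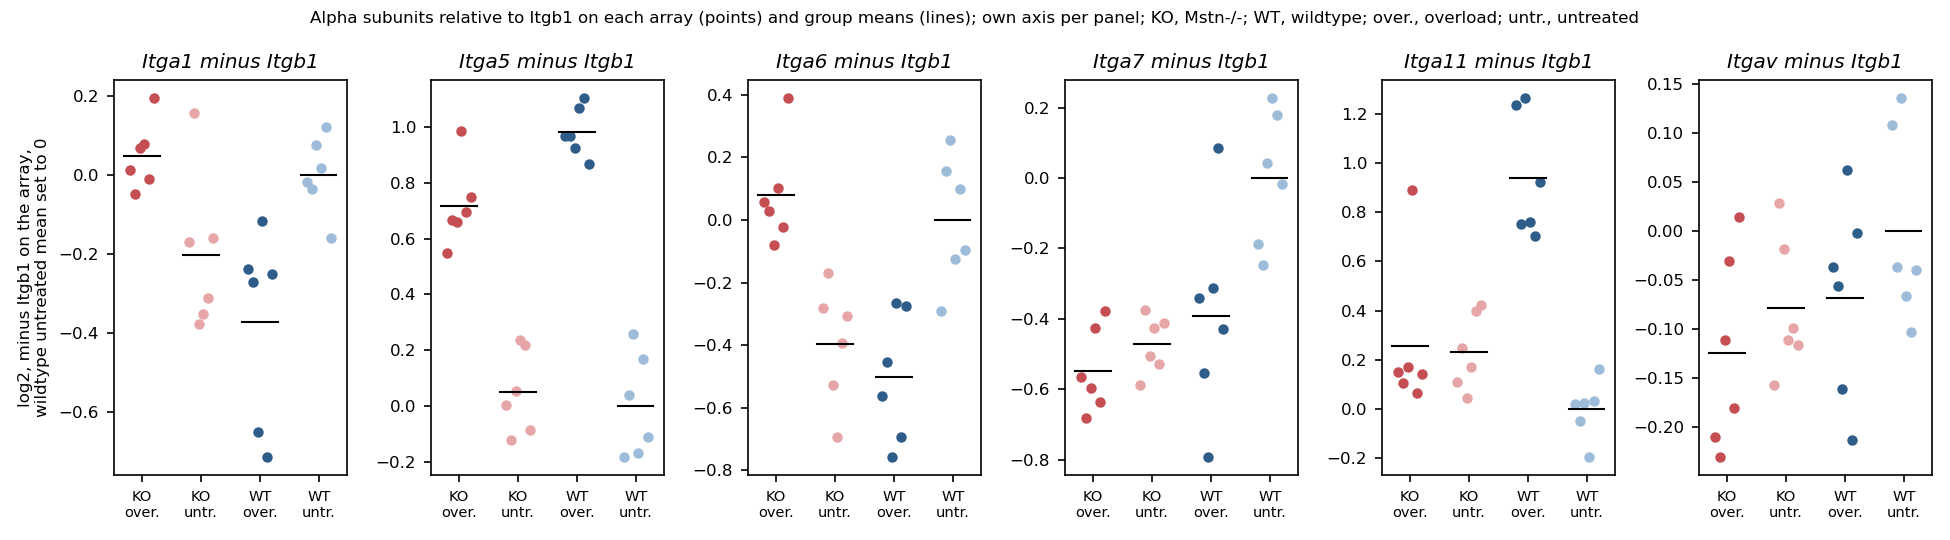
Log2 level of 6 alpha subunit genes minus that of Itgb1 on the same array, with the untreated wildtype mean of each gene set to 0. Points are arrays, lines are group means of 6, and each panel has its own axis. The Itga5 and Itga11 panels rise with overload in wildtype by 0.98 and 0.94, and the Itga6 panel rises in Mstn-/- by 0.47 where wildtype is lower by 0.50.

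Between genotypes, the larger differences were under load. In overloaded muscle 8 of the 10 genes were lower in Mstn-/- than in wildtype, beside 19% of all genes, and Itga6 alone was higher, beside 17.5% of all genes. Itga1 was not called (log2 0.14 ± 0.08, SE, limma adjusted p = 0.200). The largest differences were those of Itga11 (1.96-fold lower, log2 -0.97 ± 0.11, limma adjusted p = 2.59e-07), Itgbl1 (1.80-fold lower, log2 -0.85 ± 0.12, limma adjusted p = 8.14e-06) and Itga5 (1.46-fold lower, log2 -0.55 ± 0.09, limma adjusted p = 3.70e-05). Itga7, Itgb5, Itgav, Itgb1 and Itgb3 were lower by 1.35-fold, 1.30-fold, 1.26-fold, 1.22-fold and 1.19-fold, with limma adjusted p between 3.34e-05 and 0.00207. Itga6 was 1.23-fold higher (log2 0.30 ± 0.10, limma adjusted p = 0.0178). The arrays did not overlap for 7 of the 8 lower genes, Itgb3 being the exception, against 8.46% of all genes, and the Itga6 groups overlapped (7.06% of all genes were higher without overlap).

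In untreated muscle 3 of the 10 genes were lower in Mstn-/- (10.2% of all genes), 1 was higher (11.1% of all genes) and 6 were not called. Itga7 was 1.31-fold lower without overlap (log2 -0.39 ± 0.10, SE, limma adjusted p = 0.00401), close to its difference under load (log2 -0.44 ± 0.10, limma adjusted p = 7.54e-04), so that the fibre laminin receptor gene was lower in Mstn-/- muscle in both conditions. Of all genes 5.47% were lower without overlap, as Itga7 was, and 6.53% were higher without overlap, as Itga11 was. The other 3 calls were each lost when single arrays were left out. Itgbl1 was 1.31-fold lower (log2 -0.39 ± 0.12, limma adjusted p = 0.0254), Itga6 1.25-fold lower (log2 -0.32 ± 0.10, limma adjusted p = 0.0212) and Itga11 1.24-fold higher (log2 0.31 ± 0.11, limma adjusted p = 0.0448). Itgbl1 lost its call without Mstn-/- replicate 3 or 4 or wildtype replicate 3, 5 or 6 (log2 -0.37 to -0.31, limma adjusted p from 0.0543 to 0.0779). Itga6 lost it without Mstn-/- replicate 4 or wildtype replicate 2 or 3 (log2 -0.27 to -0.25, limma adjusted p from 0.0599 to 0.0670). Itga11 lost it without Mstn-/- replicate 1, 4, 5 or 6 or wildtype replicate 2, 3, 4 or 5 (log2 0.26 to 0.33, limma adjusted p from 0.0503 to 0.117). Itgb5, at -0.17 ± 0.07, missed the threshold (limma adjusted p = 0.0625) and passed it without Mstn-/- replicate 1 (log2 -0.21, limma adjusted p = 0.0234), under quantile normalization once more (limma adjusted p = 0.0453) and with array weights (limma adjusted p = 0.0199). Itga1, Itga5, Itgav, Itgb1 and Itgb3 differed by between -0.12 and 0.13 on the log2 scale, with limma adjusted p between 0.323 and 0.999.

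**Figure D4:**
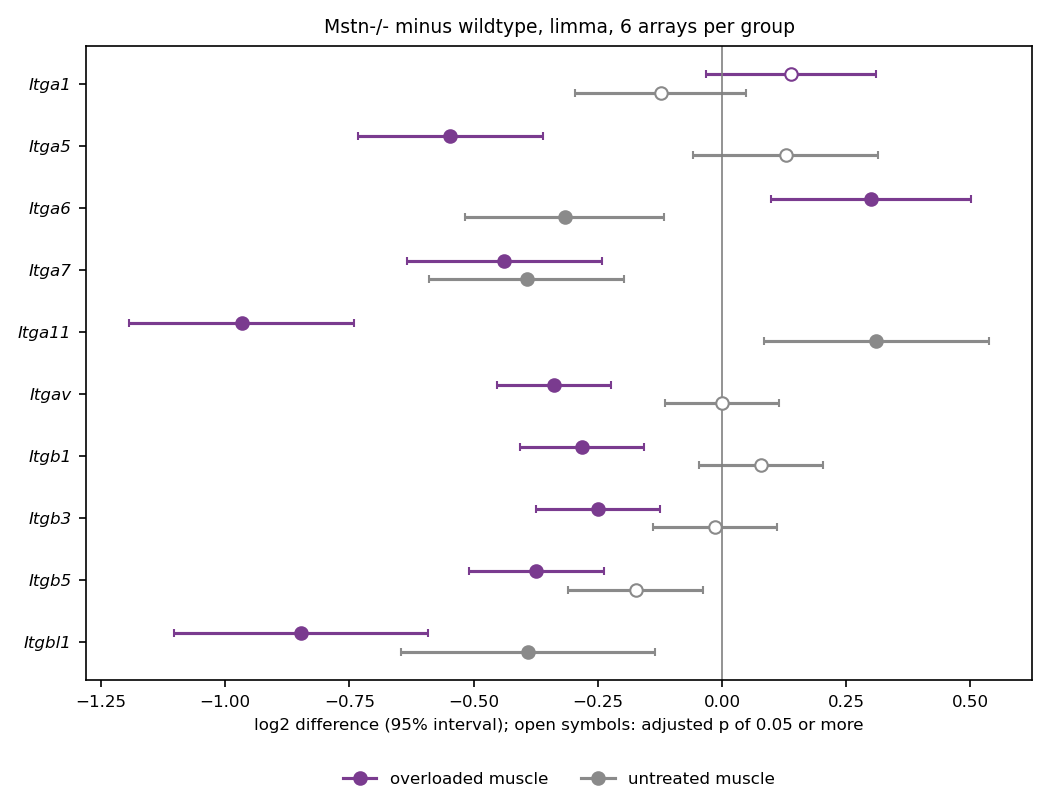
Log2 difference of Mstn-/- minus wildtype muscle with its 95% interval, overloaded above untreated for each gene. Filled symbols passed an adjusted p of 0.05. Under overload 8 genes lie left of 0 and Itga1 and Itga6 to the right, and the intervals of Itga7, Itgb5 and Itgbl1 lie left of 0 in both conditions.

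The order of the 4 groups differed between the genes. For Itga5 and Itgb1 the means ran from untreated wildtype, untreated Mstn-/- and overloaded Mstn-/- up to overloaded wildtype, and only the 2 untreated groups overlapped. Itgav, Itgb3 and Itgbl1 had untreated Mstn-/- lowest, overlapping with untreated wildtype, and overloaded wildtype on top. The untreated groups were not called different for Itga5, Itgb1, Itgav and Itgb3 (limma adjusted p from 0.349 to 0.999). Their order is thus not settled for these genes. For Itga7 overloaded Mstn-/- muscle (9.15 ± 0.04, SD, n = 6) stayed below the mean of untreated wildtype muscle (9.26 ± 0.13), with overlapping ranges. For Itgb5, too, overloaded Mstn-/- muscle (10.11 ± 0.14) had a lower mean than untreated wildtype muscle (10.20 ± 0.08), again with overlap. For Itga1 and Itga6 overloaded Mstn-/- muscle was highest, and all neighbours in the order overlapped.

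Most genes of matrix proteins that integrins bind rose as well. Of 21 tested genes of integrin ligands 18 rose under overload in Mstn-/- and 18 in wildtype muscle, where 1 fell, with median log2 differences of 1.00 and 1.56. Among all genes 27.1% rose and 33.5% fell in Mstn-/-, and 30.3% rose and 35.6% fell in wildtype muscle. The response was smaller in Mstn-/- by the test for 9 of the 21 ligand genes and larger for 1, beside 8.44% and 8.92% of all genes. Periostin (Postn), a matricellular ligand of alpha v integrins, rose 15.8-fold in Mstn-/- and 10.5-fold in wildtype muscle, and tenascin C (Tnc) 7.28-fold and 8.18-fold in the same order. Fibronectin (Fn1), the ligand of the Itga5 product, rose 4.49-fold in Mstn-/- and 6.13-fold in wildtype muscle, and type III collagen (Col3a1) 4.96-fold and 7.49-fold in that order. Of these 4 responses only that of Col3a1 was called smaller in Mstn-/- (limma adjusted p = 0.0099). Those of Fn1, Postn and Tnc were not called different (limma adjusted p = 0.0525, 0.196 and 0.714). Vitronectin (Vtn), a ligand of alpha v receptors, rose 1.19-fold in Mstn-/- (limma adjusted p = 0.00295) and fell 1.15-fold in wildtype muscle (limma adjusted p = 0.0110), and that difference between the genotypes passed the test (limma adjusted p = 0.00185). Spp1, the osteopontin gene, had no probe set of its own.

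Genes of the proteins that link integrins to actin and pass on their signals mostly rose as well. Of 28 tested genes 21 rose and 3 fell in Mstn-/-, and 20 rose and 4 fell in wildtype muscle, with median log2 differences of 0.41 and 0.56. The shares of all genes that rose and fell were those given for the ligands. Under overload 15 of the 28 were lower in Mstn-/- than in wildtype muscle and 2 were higher, beside 19% and 17.5% of all genes. Without overload 10 were already lower and 1 was higher, beside 10.2% and 11.1% of all genes. The response itself was smaller in Mstn-/- for 3, larger for 2 and not called for 23. Those response counts are near the shares of all genes, 8.44% and 8.92%. The actin cross-linkers Actn1 and Flna rose 2.56-fold and 2.80-fold in Mstn-/- and 3.21-fold and 3.01-fold in wildtype muscle, and the focal adhesion adaptor Tgfb1i1 (Hic-5) rose 2.47-fold in Mstn-/- and 2.35-fold in wildtype muscle. Tns3, a tensin, rose 1.69-fold in Mstn-/- and 2.12-fold in wildtype muscle. The falls included the talin gene Tln2, 1.23-fold in Mstn-/- and 1.39-fold in wildtype, the tensin gene Tns1, 1.23-fold and 1.33-fold in that order, and the kindlin gene Fermt2, 1.35-fold and 1.28-fold. The responses of Actn1, Flna, Tgfb1i1, Tns3, Tln2, Tns1 and Fermt2 were not called different between the genotypes (limma adjusted p from 0.123 to 0.743). Lims2 (PINCH2), an adaptor of the integrin-linked kinase complex, fell 1.62-fold in wildtype muscle (limma adjusted p = 3.58e-08) where Mstn-/- differed by 0.02 ± 0.08 (SE, limma adjusted p = 0.869), and the responses differed (limma adjusted p = 1.48e-04). Ptk2, the focal adhesion kinase gene, had no probe set of its own, and Fermt1 was below the filter.

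Of 16 tested genes of other integrin subunits 11 rose and 1 fell in Mstn-/-, and 9 rose and 1 fell in wildtype muscle, with median log2 differences of 0.35 and 0.32. Among all genes 27.1% rose and 33.5% fell in Mstn-/-, and 30.3% rose and 35.6% fell in wildtype muscle. The largest rises of the 16 were in leukocyte chains: Itgam rose 2.09-fold in Mstn-/- and 3.25-fold in wildtype muscle, Itgb2 2.02-fold and 3.12-fold, and Itgax 1.96-fold and 2.20-fold. Itgax had a mean below the filter in both untreated groups and entered the test only through the overloaded groups, so its folds start from low values. Itga9, whose product binds tenascin C and osteopontin with beta 1, rose 1.84-fold in Mstn-/- and 1.85-fold in wildtype muscle. Itgad fell 1.23-fold in wildtype muscle (limma adjusted p = 9.58e-04) and differed by -0.17 ± 0.08 in Mstn-/- (SE, limma adjusted p = 0.0515). The 1 gene that fell in Mstn-/- was Itga4, named after its values were seen, which encodes a chain of leukocyte receptors for fibronectin and VCAM-1. Itga4 averaged 8.77 ± 0.14 in overloaded and 8.99 ± 0.11 in untreated Mstn-/- muscle, and 8.53 ± 0.16 in overloaded and 8.10 ± 0.13 in untreated wildtype muscle (log2, SD, n = 6 each). It fell 1.16-fold in Mstn-/- (limma adjusted p = 0.0173) and rose 1.35-fold in wildtype muscle (limma adjusted p = 1.67e-05), and the responses differed by -0.64 ± 0.11 (SE, limma adjusted p = 1.75e-04). Without overload it was 1.84-fold higher in Mstn-/- than in wildtype muscle (limma adjusted p = 4.17e-09). Itgae was below the filter.

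**Figure D5:**
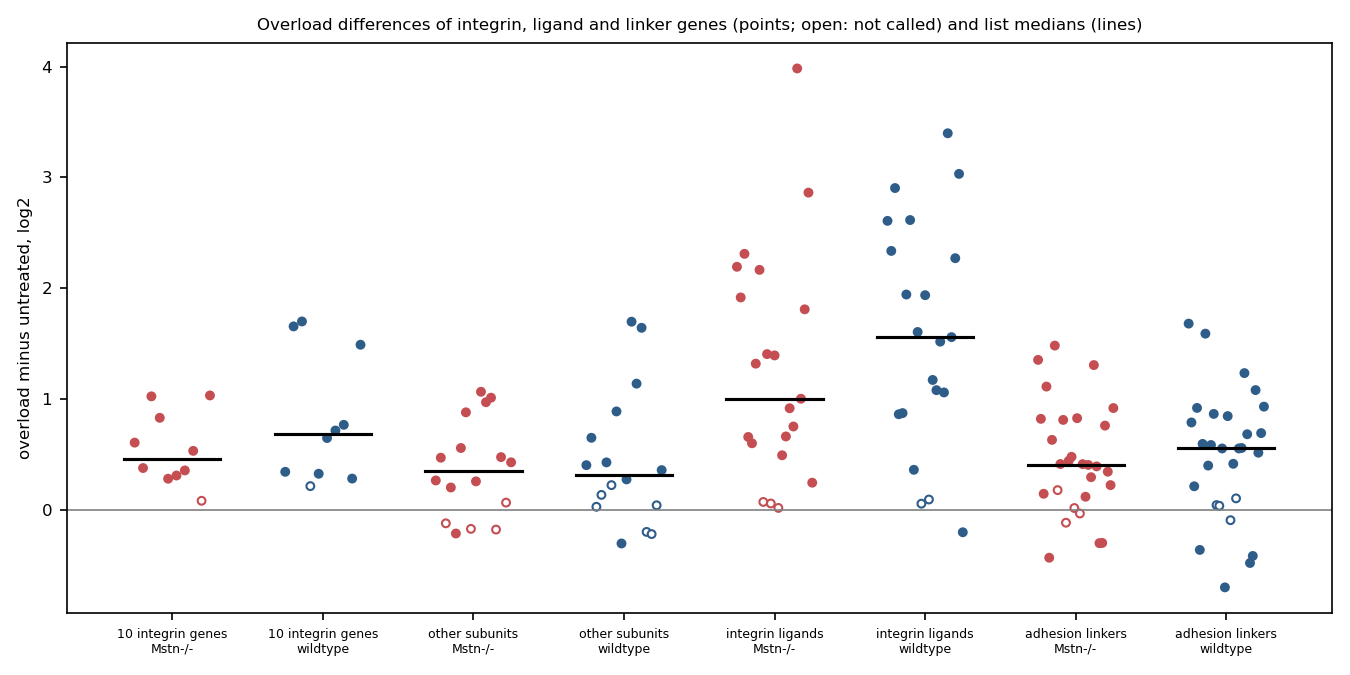
Log2 difference of overloaded minus untreated muscle for the genes of 4 lists, Mstn-/- left of wildtype. Points are genes, open where not called, and lines are list medians. The ligand medians of 1.00 and 1.56 stand above those of the 10 integrin genes at 0.46 and 0.68.

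Markers of some other cell types also rose under overload, and those of others did not. For the marker counts, 27.1% of all genes rose and 33.5% fell in Mstn-/-, and 30.3% and 35.6% did in wildtype muscle. In Mstn-/- against wildtype, 17.5% of all genes were higher and 19% lower under overload, and 11.1% and 10.2% without it. The response in Mstn-/- was called lower for 8.44% of all genes and higher for 8.92%. The summed intensity of 10 macrophage markers lay between 9468 and 17568 in overloaded Mstn-/- muscle, against 3826 and 5022 in untreated Mstn-/- muscle, and between 13660 and 19750 in overloaded wildtype muscle, against 2622 and 3625 in untreated wildtype muscle. All 10 rose in each genotype, and for 5 of them the response was smaller in Mstn-/- by the test, as it was for Itga5, Itga11, Itgav and Itgb1. Without overload 4 of the 10 were higher in Mstn-/- than in wildtype muscle, and under overload 2 were lower. The sum of 7 fibroblast markers lay between 18607 and 22572 in overloaded Mstn-/- muscle, against 12352 and 15245 in untreated Mstn-/- muscle, and between 24742 and 29873 in overloaded wildtype muscle, against 11340 and 14744 in untreated wildtype muscle. Of these 7 genes 6 rose in Mstn-/- and 7 in wildtype, and for 4 of them, too, the response was smaller in Mstn-/- by the test. Under overload 6 of the 7 were lower in Mstn-/- than in wildtype muscle, as 8 of the 10 integrin genes were.

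Endothelial markers also mostly rose in each genotype, as 9 of the 10 integrin genes did. The sum of 8 such markers lay between 7190 and 8632 in overloaded Mstn-/- muscle, against 4802 and 5724 in untreated Mstn-/- muscle, and between 6570 and 8598 in overloaded wildtype muscle, against 5103 and 6408 in untreated wildtype muscle. Their median log2 difference with overload was 0.57 in Mstn-/- and 0.35 in wildtype, 7 of 8 rising in each, and 3 of the 8 had a larger response in Mstn-/- by the test. Between genotypes 1 was higher and 1 lower in Mstn-/- under overload, and 1 was higher and 3 were lower without it. The sum of 5 tendon cell markers lay between 13018 and 15826 in overloaded Mstn-/- muscle, against 5481 and 7785 in untreated Mstn-/- muscle, and between 19172 and 23971 in overloaded wildtype muscle, against 5891 and 10267 in untreated wildtype muscle. All 5 were lower in overloaded Mstn-/- than in overloaded wildtype muscle, and 4 of the 5 were lower in untreated Mstn-/- than in untreated wildtype muscle. Itga7 and Itgbl1 were also called lower in both conditions. The response of 1 of the 5 markers was smaller in Mstn-/- by the test.

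The sum of 10 muscle fibre markers lay between 103048 and 109685 in overloaded Mstn-/- muscle, against 107175 and 113971 in untreated Mstn-/- muscle, and between 78391 and 94948 in overloaded wildtype muscle, against 108999 and 111035 in untreated wildtype muscle. Of these 10 genes 6 fell and 2 rose in Mstn-/-, and 7 fell in wildtype. The wildtype fall was uneven. Median intensity went from 11361 without to 5394 with overload for Myh4, from 11359 to 6575 for Actn3 and from 11746 to 6658 for Pvalb. Ckm, Tnnt3, Ttn and Dmd fell by less. The wildtype medians of Acta1 (16321 to 16644), Myh1 (9023 to 9562) and Myh2 (10473 to 11445) were not lower under overload. The lower wildtype sum was thus not shared by all fibre genes. The sum of 7 smooth muscle and pericyte markers lay between 8461 and 10018 in overloaded Mstn-/- muscle, against 5893 and 6518 in untreated Mstn-/- muscle, and between 9734 and 11165 in overloaded wildtype muscle, against 5968 and 10643 in untreated wildtype muscle. The wildtype medians were 10255 under overload and 6720 without. Of these 7 genes 5 rose in Mstn-/- and 4 in wildtype, and 0 fell in either. Satellite cell markers, at sums of 1391 to 1476 in overloaded and 1616 to 1853 in untreated Mstn-/- muscle and 1420 to 1590 in overloaded and 1433 to 1651 in untreated wildtype muscle, did not rise together: 2 of 6 rose and 2 fell in Mstn-/-, and 0 rose and 2 fell in wildtype. Those satellite cell counts are near or below the shares of all genes. The part of all these cell types in the integrin differences was not tested.

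The sum of 4 platelet markers, relevant to Itgb3, lay between 1068 and 2778 in overloaded Mstn-/- muscle, against 757 and 957 in untreated Mstn-/- muscle, and between 1200 and 1730 in overloaded wildtype muscle, against 724 and 793 in untreated wildtype muscle. The 1 of the 4 that rose was Pf4, 2.24-fold in Mstn-/- and 3.63-fold in wildtype muscle, and 1 of 4 is near the share of all genes called higher. Ppbp reached 1661 on 1 overloaded Mstn-/- array and was not called under overload, and neither were Gp9 and Treml1. Of 3 lymphocyte markers with a probe set 1, Cd3e, was above the filter in each group, and it rose 1.18-fold in Mstn-/- (limma adjusted p = 0.004) and 1.15-fold in wildtype muscle (limma adjusted p = 0.0148). The 2 Schwann cell markers did not pass the test in either genotype. Array intensities have no 0, so absence of a marker is read here only as a level below the filter.

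For 3 of the genes, the 3 most similar profiles among all tested genes were sought by the root mean square difference between log2 profiles, each centred on its own mean, over the 24 arrays. Closest to Itgb1 was Capn2, the catalytic subunit gene of calpain 2, at 0.06, followed by Pafah1b2 and Mid2 at 0.09 each, where the median over all genes was 0.37. Capn2 had log2 differences with overload of 0.36 in Mstn-/- and 0.77 in wildtype, beside 0.36 and 0.72 for Itgb1. Closest to Itga7 were Flnc, the filamin of muscle, at 0.12, Kremen1 at 0.13 and Wipi1 at 0.16 (median over all genes 0.36), and like Itga7 each was lower in untreated Mstn-/- than in untreated wildtype muscle, by 0.30, 0.29 and 0.27 on the log2 scale. Closest to Itgbl1 were Cpxm2 at 0.13 and the thrombospondin family genes Comp at 0.16 and Thbs4 at 0.17 (median over all genes 0.78). The profiles compared share the same arrays and the same 4 groups. The genes were picked for likeness over these arrays, so their matching differences follow from that choice and are not separate evidence.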

How the data were processed

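Total RNA of 24 plantaris muscles was depleted of rRNA, amplified and hybridised to Affymetrix whole-transcript arrays, per the labels' protocols. The deposited values are intensities on a linear scale, made by the authors with RMA per the submitters' processing notes; the labels name no software version and no batches. Depth does not apply to arrays, and 6 arrays per group limit the precision. The deposited intensities were put on the log2 scale once.

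Of 34760 probe sets 21640 had 1 gene symbol, 1321 several and 11799 none in the platform annotation, giving 19937 genes, each read by its single-symbol probe set with the highest mean. Genes were tested if 1 group mean exceeded the 30th percentile of single-symbol probe sets (intensity 98.9), which left 14499. The planned wording took that percentile over all 22961 annotated probe sets (14663 genes); it was narrowed after the data were seen, and the planned wording was kept as an alternative. limma 3.58.1 in R 4.3.3 fitted 1 mean per group to all 24 arrays (20 residual degrees of freedom), with Benjamini-Hochberg adjustment over all tested genes, two-sided, at 0.05. On simulated data with 14499 genes, 200 of them changed in overloaded wildtype, 66% of changes of 0.3 log2 and 95.3% of 0.5 were recovered. The real comparison called 9560 genes, and the adjusted p depends on that share. The simulated shares therefore check the code and do not give the recovery in these data.

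The 10 genes and all lists were chosen with earlier results of these data known. From the lists the 4 largest rises and falls under overload in wildtype past the threshold were named; likeness was sought for Itgb1, Itga7 and Itgbl1. Of 36 same-numbered pairs of arrays between groups 9 correlated above 0.1 in their deviations. The median r was 0.022 for these 36 pairs and -0.006 for other pairs between groups. The main fit did not pair samples by replicate number, and whether the numbers mark a shared batch was not tested. The labels call the 6 arrays of a group biological replicates. Alternatives covered normalization, filter, probe set choice, variance model, array weights, a replicate block and leaving out each array.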

Additional observations from a re-analysis of the deposited data

Results flagged for a closer look

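In 3 of 40 sets of 6 arrays, formed by each gene and group, 1 array stood apart by Dixon's test at its 95% critical value, which chance flags in about 1 of 20 sets. Itga11 read 7.83 on the log2 scale in untreated wildtype replicate 4, where the nearest array read 8.09. Itgbl1 read 8.94 in the same replicate, where the nearest read 9.44. Itgav read 10.35 in overloaded wildtype replicate 4, where the nearest read 10.17.

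The response to overload differed between the genotypes by the limma interaction test for 5 genes. The difference, Mstn-/- minus wildtype, was -1.28 for Itga11, -0.68 for Itga5, -0.36 for Itgb1, -0.34 for Itgav and 0.62 for Itga6 on the log2 scale.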

How the results depend on the processing

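The counts of integrin genes called under overload in each genotype, and between overloaded genotypes, were within 1.5 times the reported ones under every alternative run. For the 50 single gene differences, alternatives other than leaving out an array gave 440 values with the same direction and call, 5 that gained a call, 3 that lost it and 2 that changed sign. Each of the 10 genes had 1 probe set, so averaging probe sets could not change its log2 difference. Nor could the filters, the variance model or the replicate block, where only the adjusted p could move. For these alternatives the same direction was fixed in advance. In untreated muscle the count called higher in Mstn-/- (1, Itga11) was 0 under quantile normalization once more, without a filter and with the replicate block (limma adjusted p = 0.0538, 0.058 and 0.067), and between 0 and 1 when single arrays were left out. The count called lower (3) then lay between 1 and 4. The count of larger responses in Mstn-/- (1) was 2 with array weights, through Itga1 (limma adjusted p = 0.0423), and between 1 and 2 when arrays were left out. Signs changed only for differences near 0 that were not called: Itgav in untreated muscle was 0.0111 with arrays shifted to the same median, 0.00414 with array weights, and between -0.0295 and 0.0316 with single arrays left out. In the same way Itgb3 in untreated muscle lay between -0.0536 and 0.00474, and the response difference of Itga7 between -0.11 and 0.0706. The causes were not tested. With the filter percentile over all annotated probe sets, an alternative added after seeing the data, every integrin gene kept its call. The main fit did not pair samples by replicate number. With the replicate block 8688 genes were called under overload in Mstn-/- (8789 without it) and 9512 in wildtype (9560 without it). Between genotypes 3004 were called in untreated muscle (3091 without it) and 5219 in overloaded muscle (5293 without it). In the response 2440 were called (2516 without it).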
